A study of Mus musculus with 8 samples.

Results

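The genes of the AP-1 transcription factor family were followed in hematopoietic stem cells (HSCs) of mice made anemic with phenylhydrazine (PHZ). The members were the rows of the deposited expression tables with the symbols Fos, Fosb, Fosl2, Jun, Junb, Jund, Atf3, Batf, Maff and Mafk, which is 10 of the 15142 genes listed in all tables. They were listed by symbol, with earlier results of these data known, and genes that hardly moved are included. All 10 passed the filter on low values, among 11347 genes tested. Atf3 passed it only because a single library of each PHZ group lay above 1 FPKM. Fosl2 lay under 1 FPKM in all control libraries and passed only through PHZ libraries. Fosb reached 1 FPKM in a single control library and otherwise only in marrow of PHZ-treated mice.

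PHZ lyses red blood cells, which leads to a hemolytic anemia. The RNA-seq data asked how HSCs of bone marrow (BM) and spleen (SP) respond to it. All mice were WT C57BL/6. The 3 control BM HSC libraries came from mice labelled as given PBS. The 3 PHZ BM HSC and 2 PHZ SP HSC libraries came from mice that received PHZ at 60 mg/kg in 2 daily intraperitoneal injections and were sampled on day 3 after the last. In the study's methods HSCs are lineage-negative, Sca-1+, c-kit+, CD150+ and CD48-/low cells, the marrow being flushed or crushed from bones and the spleen smashed between slides. Whether a library held 1 animal or several was not given, so the p-values measure the spread between these libraries. Spleen HSCs of mice without PHZ were not analysed here, so in PHZ SP HSC the organ cannot be told apart from the response to PHZ.

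AP-1 is a dimer of basic leucine zipper (bZIP) proteins. Fos proteins cannot pair with themselves and bind DNA with a Jun partner, whereas Jun proteins can also pair with each other. ATF, BATF and small Maf proteins are relatives that share the zipper and extend the choice of partners. Fos, Fosb, Jun, Junb and Atf3 are classical immediate early genes, whose short-lived transcripts appear within minutes of a growth factor, cytokine or stress signal without new protein synthesis. The same genes also respond to handling of cells. In blood-forming cells, AP-1 proteins are known from myeloid differentiation and from the control of stem cell proliferation by JunB.

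The promoters of Fos, Fosb, Jun and Junb, which differed most between the marrow groups, are shown here. They are the 250 bases before the RefSeq start site, build GRCm38.p6 (mm10), written 5′ to 3′ on the gene's strand. Capitals mark matches to the motifs named after them.
Fos, chr12:85473640-85473889, plus strand: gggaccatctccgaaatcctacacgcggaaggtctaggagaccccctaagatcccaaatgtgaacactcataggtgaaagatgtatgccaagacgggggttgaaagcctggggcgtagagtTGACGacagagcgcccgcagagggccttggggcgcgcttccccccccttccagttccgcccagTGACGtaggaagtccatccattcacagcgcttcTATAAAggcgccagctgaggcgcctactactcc
Fosb, chr7:19310046-19310295, minus strand: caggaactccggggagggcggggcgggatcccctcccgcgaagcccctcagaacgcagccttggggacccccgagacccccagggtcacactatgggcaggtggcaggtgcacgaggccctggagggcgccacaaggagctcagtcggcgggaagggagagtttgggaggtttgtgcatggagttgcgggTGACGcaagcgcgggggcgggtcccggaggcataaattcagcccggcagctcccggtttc
Jun, chr4:95052223-95052472, minus strand: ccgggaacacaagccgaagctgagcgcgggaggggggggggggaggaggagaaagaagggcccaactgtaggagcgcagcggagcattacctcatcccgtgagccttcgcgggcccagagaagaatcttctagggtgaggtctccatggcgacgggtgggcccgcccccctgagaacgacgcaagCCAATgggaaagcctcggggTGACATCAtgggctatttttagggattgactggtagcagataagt
Junb, chr8:84978749-84978998, minus strand: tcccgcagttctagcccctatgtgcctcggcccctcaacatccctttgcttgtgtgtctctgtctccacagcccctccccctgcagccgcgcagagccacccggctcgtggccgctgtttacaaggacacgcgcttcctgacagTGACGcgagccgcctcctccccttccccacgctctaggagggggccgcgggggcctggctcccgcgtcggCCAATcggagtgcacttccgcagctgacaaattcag

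The motifs were chosen after these promoters had been read, and were searched on both strands. The short cyclic AMP motif TGACG, to which CREB and ATF proteins can bind, was present in 7 of the 10 members (Fos, Fosb, Junb, Atf3, Batf, Maff and Mafk). It also stood in 17.8% of 32851 windows of the same length and in 27.3% of the 11479 windows of tested genes. The motif was absent from Fosl2, Jun and Jund, which rose in PHZ BM HSC. Atf3, Batf, Maff and Mafk held it, with smaller changes there. Maff has 3 annotated start sites, each with a window, and the other members 1. Fos had TGACG at -129 and at -66 before the start, Fosb at -60 and Junb at -106. The full element TGACGTCA, which contains the short motif, was found in Maff alone, at its start site at chr15:79347270-79347519, and in 1.55% of all windows.

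The Jun promoter held TGACATCA from -45 to -38, the AP-1 variant through which Jun protein can bind the promoter of its own gene. Maff had the same letters in its window at chr15:79348152-79348401, and 2.93% of all windows held them. The common AP-1 site TGACTCA (4.46% of windows) and the CArG box (1.47%), the SRF binding motif known from the Fos serum response element, had no match in the 250 bases of any member. Elements farther from the start than 250 bases could not be found by this search, so it cannot show that a promoter lacks them. TATAAA was found in Fos only (12.4% of windows), and CCAAT in Jun and Junb (33.8%). A match describes letters in a window and was not tied to any expression value.

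Reads worked back from the tables numbered 8216626 to 13201359 per library, of which the ribosomal RNA precursor Rn45s took 43.3% to 48.6%. Libraries of a group correlated across the tested genes with r of 0.903 to 0.976. Levels are FPKM (fragments per kilobase of gene, scaled for depth, and rescaled so that all libraries are comparable), and differences are those of log2(FPKM + 1), where the added 1 makes the change of a weakly expressed gene look smaller than it is. A gene was called when its adjusted p fell under 0.05 (limma, Benjamini-Hochberg over 11347 genes). All 10 HSC markers examined, among them Procr, Mecom and Hlf, averaged at least 1 FPKM in every group, with summed levels of 411 to 549 FPKM in control BM HSC, 457 to 555 in PHZ BM HSC and 504 to 526 in PHZ SP HSC.

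In marrow HSCs of PHZ-treated mice, 6 of the 10 AP-1 genes rose and none fell (limma; 9 differed at an unadjusted p under 0.05, all higher, against 16.6% of all genes in either direction, and voom on the recovered reads also called 6). These were Fos, Fosb and Fosl2 of the Fos proteins and Jun, Junb and Jund of the Jun proteins. In comparison, 1.48% of all genes tested were called higher and 1.26% lower. The median difference of the 10 members was 1.70 on the log2 scale, against 0.01 over all genes. Atf3 was at 0 in the control libraries; with its control level set at what 3 reads would give, the median was again 1.70. In each of the 10, every PHZ BM HSC library lay above every control library, a pattern shown by 12.3% of all genes, while 11.7% showed the opposite one. For Atf3 this order rests on as few as 2 reads against 0 and is within counting error.

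**Figure D1:**
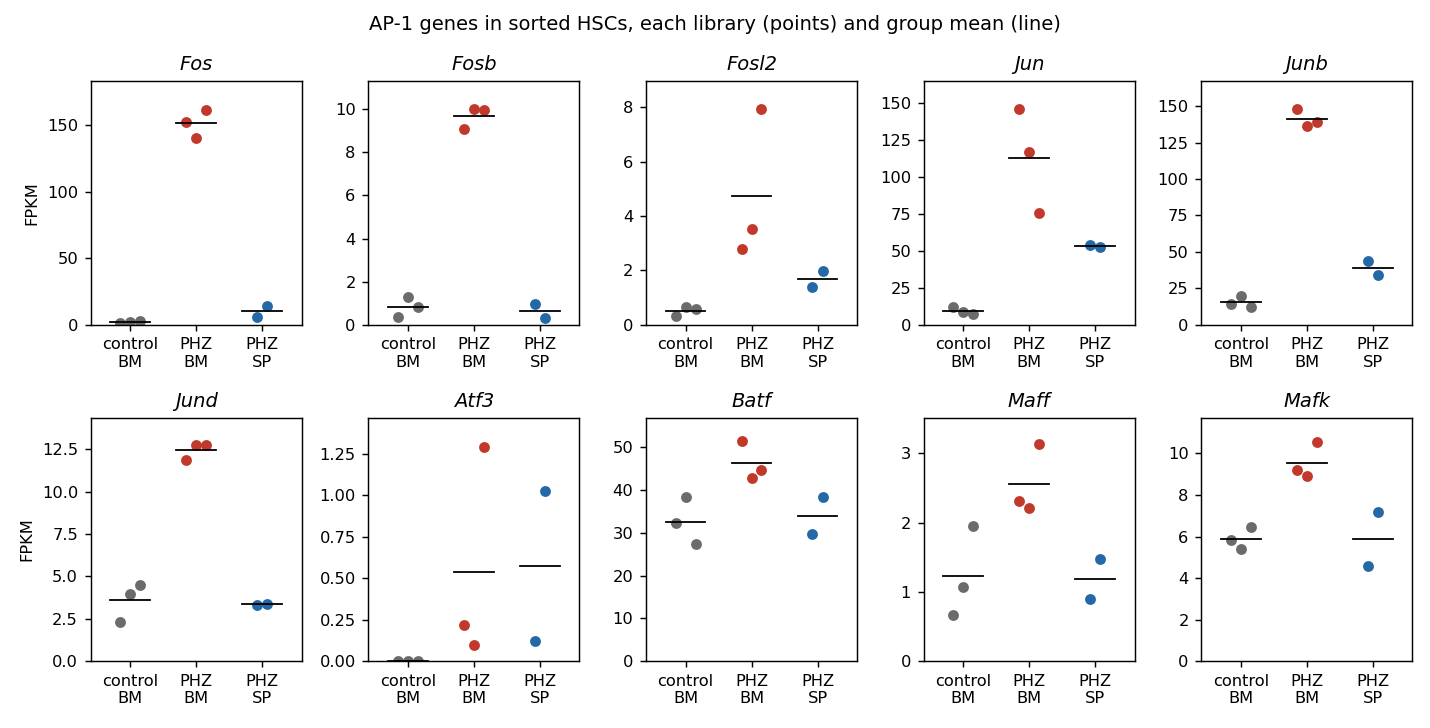
FPKM of the 10 AP-1 genes, 1 panel per gene with its own linear axis from 0. Points are libraries (3 control BM HSC, 3 PHZ BM HSC, 2 PHZ SP HSC) and lines are group means. Fos rose from 1.13 to 2.98 FPKM in control libraries to 140 to 162 FPKM in PHZ BM HSC, with 6.08 and 13.8 FPKM in PHZ SP HSC; Batf, Maff and Mafk spanned far smaller ranges.

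Fos, which encodes c-Fos, lies at chr12:85473890-85477274 and has 4 exons (GENCODE vM21). Its level was 1.13, 2.02 and 2.98 FPKM in control BM HSC replicates 1 to 3, resting on 26 to 90 reads. It was 152, 140 and 162 FPKM in PHZ BM HSC. All PHZ BM HSC libraries were far above all controls, and among the 11347 tested genes Fos moved from rank 7461 to 9702 by level to rank 151 to 169. The mean was 74.1-fold higher. The difference of 5.69 ± 0.29 (SE) had an adjusted p of 4.249e-06 (limma) and was the largest increase and the smallest p of any gene tested in this comparison.

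Fosb, at chr7:19302696-19310118, encodes a Fos protein with a long and a short splice form, which FPKM per gene does not separate. Its control levels were 0.352, 1.29 and 0.843 FPKM. Its PHZ BM HSC levels were 9.08, 9.99 and 9.98 FPKM. The groups did not overlap, and the PHZ BM HSC mean was 11.7-fold higher. The difference was 2.58 ± 0.27 with an adjusted p of 0.000881 (limma). Fosl2, at chr5:32136472-32157840, encodes Fra-2, a Fos protein that lacks the strong transactivating end of c-Fos. It was low in control libraries, at 0.314, 0.663 and 0.591 FPKM, and reached 2.80, 3.53 and 7.93 FPKM after PHZ. PHZ BM HSC replicate 3 stood above its fellows. The difference was 1.82 ± 0.33 (adjusted p = 0.0137, limma), and it passed the threshold without any single library, with adjusted p-values of up to 0.0495.

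The Jun proteins supply the partner of Fos, and their genes consist of a single exon. Jun, at chr4:95049036-95052222, encodes c-Jun, the target of the JNK kinases. Its control levels were 11.9, 8.39 and 7.32 FPKM. Its PHZ BM HSC levels were 146, 117 and 75.7 FPKM. The groups were clearly apart, yet the PHZ libraries spread widely, and replicate 3, the highest for Fosl2, was the lowest for Jun. The mean was 12.2-fold higher and the difference 3.45 ± 0.24 (adjusted p = 3.318e-05, limma), which ranked 2 among the increases of all genes tested.

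Junb, at chr8:84976909-84978748, encodes JunB, a weaker activator than c-Jun that restrains proliferation of myeloid and stem cells. It was 14.1, 19.9 and 12.3 FPKM in controls, in each the most abundant Jun gene. It was 148, 136 and 139 FPKM after PHZ, so that the libraries lay close together around a 9.14-fold higher mean. The difference was 3.14 ± 0.18 (adjusted p = 8.653e-06, limma), the smallest standard error of the 6 called members.

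Jund, at chr8:70697739-70700616, encodes JunD, which most cells express steadily and which is the least inducible Jun protein. It measured 2.33, 3.98 and 4.48 FPKM in controls and 11.8, 12.8 and 12.8 FPKM in PHZ BM HSC. All PHZ libraries were higher, by 3.46-fold in the mean. The difference was 1.58 ± 0.23 (adjusted p = 0.00512, limma). Of the 1668 exon bases of Jund, 877 (52.6%) are shared with the antisense gene Gm11175, which the tables do not list, and the handling of strand is not stated, so reads of this antisense gene cannot be told apart from those of Jund.

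The 4 remaining members were not called in PHZ BM HSC. Batf, at chr12:85686720-85709087, encodes a partner of Jun proteins that lacks a transactivating part of its own and is known from lymphocytes. It was already the most abundant member in control HSCs, at 32.1, 38.2 and 27.3 FPKM, and was 51.3, 42.7 and 44.6 FPKM after PHZ. The libraries did not overlap, but the difference was only 0.50, with a 95% interval of 0.12 to 0.88 and an adjusted p of 0.164 (limma).

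The small Maf proteins have no transactivating part either and pair with NF-E2 and Nrf proteins, which regulate globin and antioxidant genes. Mafk, at chr5:139791536-139802653, measured 5.82, 5.39 and 6.46 FPKM in controls and 9.22, 8.92 and 10.6 FPKM in PHZ BM HSC. Its difference was 0.62 (interval 0.14 to 1.09; adjusted p = 0.168, limma). Maff, at chr15:79346621-79359078, was 0.670, 1.07 and 1.95 FPKM in controls and 2.32, 2.22 and 3.13 FPKM after PHZ. Its difference was 0.70 (interval 0.07 to 1.34; adjusted p = 0.242, limma). In both genes every PHZ library was above every control, with differences well under those of Fos and Jun.

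Atf3, at chr1:191170296-191183333, encodes a stress-induced repressor that can pair with Jun proteins. No read was seen in any of the 3 control libraries, which allows at most 0.108 to 0.154 FPKM per library (3 reads, counting error only). The PHZ BM HSC libraries had 5, 2 and 36 reads, that is 0.221, 0.0988 and 1.29 FPKM. Nearly all of the signal thus came from replicate 3. The fitted difference of 0.54 had an interval of -0.29 to 1.37 and an adjusted p of 0.516 (limma).

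Spleen HSCs of PHZ-treated mice showed a different pattern. Against PHZ BM HSC, 4 of the 10 members fell (Fos, Fosb, Junb and Jund) and none rose (limma; 8 differed at an unadjusted p under 0.05, all lower, against 13.5% of all genes in either direction). By comparison, 0.37% of all genes were called lower and 0.608% higher. The members' median difference was -1.01, against -0.02 over all genes. In 9 of the 10, all but Atf3, both spleen libraries lay below every PHZ BM HSC library, and 17.4% of all genes did the same (a further 17.4% lay entirely above). This comparison and the preceding one share the PHZ BM HSC libraries, so high values there enter both, with opposite sign.

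**Figure D2:**
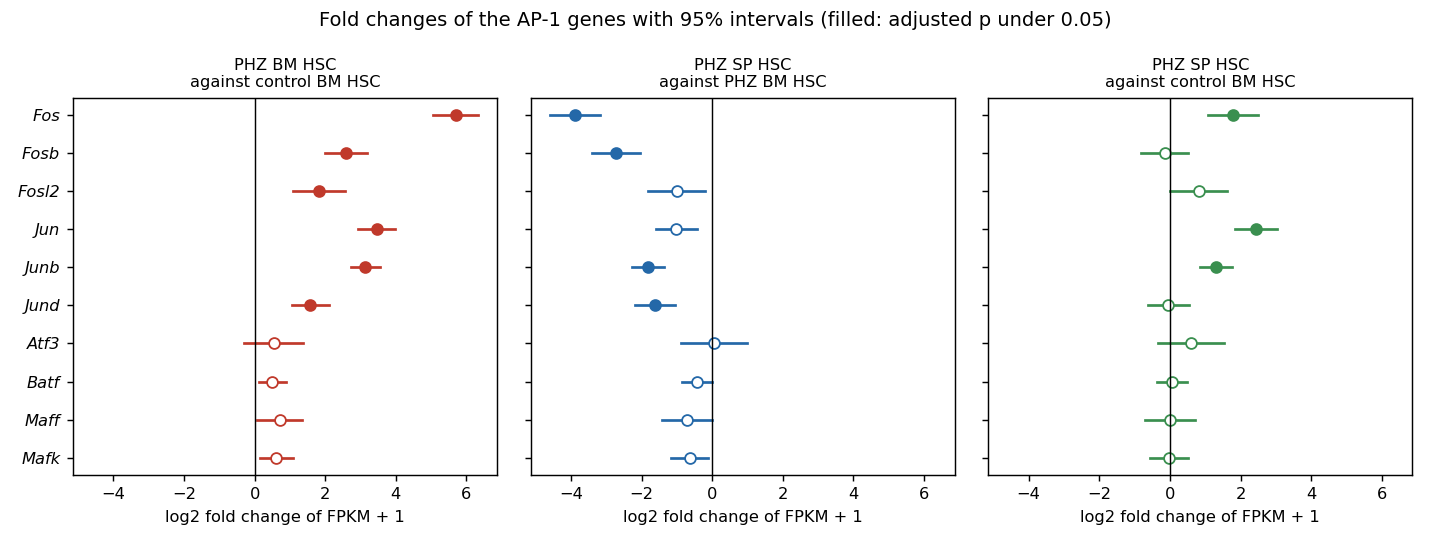
Log2 fold change of FPKM + 1 for each AP-1 gene in the 3 comparisons, all drawn on the same axis. Points are estimates, bars are 95% intervals from limma, and filled points have an adjusted p under 0.05. The 6 Fos and Jun genes lie to the right in the comparison of PHZ BM HSC with control BM HSC, and in the comparison of the PHZ groups the Fos genes reach down to -3.89.

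Fos was 6.08 and 13.8 FPKM in the spleen libraries, 15.2-fold below the PHZ BM HSC mean. Its difference of -3.89 ± 0.32 was the largest decrease and had the smallest p of all tested genes (adjusted p = 0.00102, limma). Fosb was 0.946 and 0.330 FPKM, 15.2-fold below PHZ BM HSC (-2.73 ± 0.31; adjusted p = 0.00389, limma). The spleen libraries overlapped with the controls in Fosb and lay above them in Fos. Junb was 44.1 and 34.3 FPKM (-1.83 ± 0.21; adjusted p = 0.00389, limma), and Jund was 3.32 and 3.40 FPKM (-1.62 ± 0.26; adjusted p = 0.0177, limma). For both, the spleen libraries lay close together and well below those of marrow.

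The calls of Fosb and Junb were lost without PHZ SP HSC replicate 2, where their adjusted p-values were 0.0525 and 0.0528, and held without each of the other libraries. Jund was not called without replicate 1 or replicate 2 of PHZ BM HSC or without either spleen library (adjusted p of up to 0.152), nor by voom on the recovered reads (0.0995). Its difference stayed between -1.66 and -1.61 when a library was left out. Fos was called without any single library.

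Jun was 54.0 and 52.4 FPKM in the spleen libraries, below all marrow libraries of PHZ-treated mice. Its difference of -1.02 (interval -1.61 to -0.43) was not called, with an adjusted p of 0.113 (limma). Of the single libraries left out, only PHZ BM HSC replicate 3, the marrow library of PHZ-treated mice with the lowest Jun level, brought it past the threshold (adjusted p = 0.0333). Fosl2 was 1.40 and 1.98 FPKM (-1.003, interval -1.81 to -0.19; adjusted p = 0.262, limma). Batf (29.7 and 38.2 FPKM), Maff (0.896 and 1.48 FPKM) and Mafk (4.61 and 7.17 FPKM) differed from PHZ BM HSC by -0.44, -0.70 and -0.64, and their adjusted p-values ran from 0.272 to 0.374 (limma). Atf3 had 3 and 23 reads (0.125 and 1.03 FPKM), and with an interval of -0.88 to 0.99 its difference from PHZ BM HSC was not measurable at this depth.

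Against control BM HSC, spleen HSCs had higher levels of Jun, Junb and Fos, so that 3 of 10 members rose, and none fell (limma; 4 differed at an unadjusted p under 0.05, all higher, against 15.8% of all genes in either direction). Of all genes, 0.626% were called higher and 0.132% lower. The members' median difference was 0.33, or 0.24 with Atf3 measured from 3 reads in control, against -0.00122 over all genes. Both spleen libraries were above all controls in 5 members (15.2% of all genes; the reverse, shown by 13.7% of all genes, was seen in no member). Atf3 is among the 5, with 3 reads in PHZ SP HSC replicate 1 against 0 in control, which is within counting error. Control libraries are shared with the first comparison.

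Jun stood out in this group. The mean of 53.2 FPKM was 5.78-fold above control, and the difference was 2.43 ± 0.27 (adjusted p = 0.00208, limma). Junb was 2.54-fold higher (1.30 ± 0.21; adjusted p = 0.0202, limma) and Fos 4.87-fold higher (1.80 ± 0.32; adjusted p = 0.0392, limma). The order of the 3 genes therefore differed from that in marrow, where Fos had the largest difference. These calls depended on single libraries. Without PHZ SP HSC replicate 1 that of Jun was lost (adjusted p = 0.0561) and without either spleen library that of Junb (up to 0.177). Fos stayed past the threshold only without control BM HSC replicate 3 or PHZ SP HSC replicate 1, and its adjusted p otherwise reached 0.136. Without a filter on low values, with only the 2 groups compared, or without trend and robust variance, neither Fos nor Junb was called (adjusted p of up to 0.136 and 0.0879), and Fos was not called with a pseudocount of 0.1 FPKM or by voom either.

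The other 7 members were not called between spleen HSCs and control marrow. Jund (-0.04, interval -0.62 to 0.53), Mafk (-0.02, interval -0.55 to 0.51), Batf (0.06, interval -0.37 to 0.49), Maff (0.00, interval -0.71 to 0.71) and Fosb (-0.15, interval -0.82 to 0.52) had overlapping libraries. Fosl2 was above control in both spleen libraries by 0.82 (interval 0.01 to 1.63; adjusted p = 0.312), and Atf3 by a fitted 0.59 (interval -0.34 to 1.53; adjusted p = 0.537, limma).

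By group mean, PHZ BM HSC was the highest group in 9 members, all but Atf3. In Fos, Fosl2, Jun and Junb the spleen libraries lay between the marrow groups and overlapped with neither. The share of all genes tested with such orders of the groups was not counted. In Fosb, Jund, Batf, Maff and Mafk the spleen and control libraries overlapped, so their order is within the spread. In bulk RNA, a larger number of expressing cells and more RNA per cell cannot be told apart.

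The makeup of the family changed along with its total. The summed level of the 10 genes was 68.8, 80.9 and 64.2 FPKM in control BM HSC, 533, 473 and 466 FPKM in PHZ BM HSC, and 145 and 154 FPKM in PHZ SP HSC. In control libraries Batf made up 45.5% ± 2.6 (SD, n = 3) of this sum, Junb 21.4% ± 2.8 and Jun 13.0% ± 3.7, while Fos made up 2.93% ± 1.54. In PHZ BM HSC Fos made up 31.0% ± 3.2, Junb 28.8% ± 1.0 and Jun 22.7% ± 5.8, and Batf was down to 9.41% ± 0.34 although its own level was not lower. The Batf share thus shrank as the Fos and Jun genes grew around it.

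**Figure D3:**
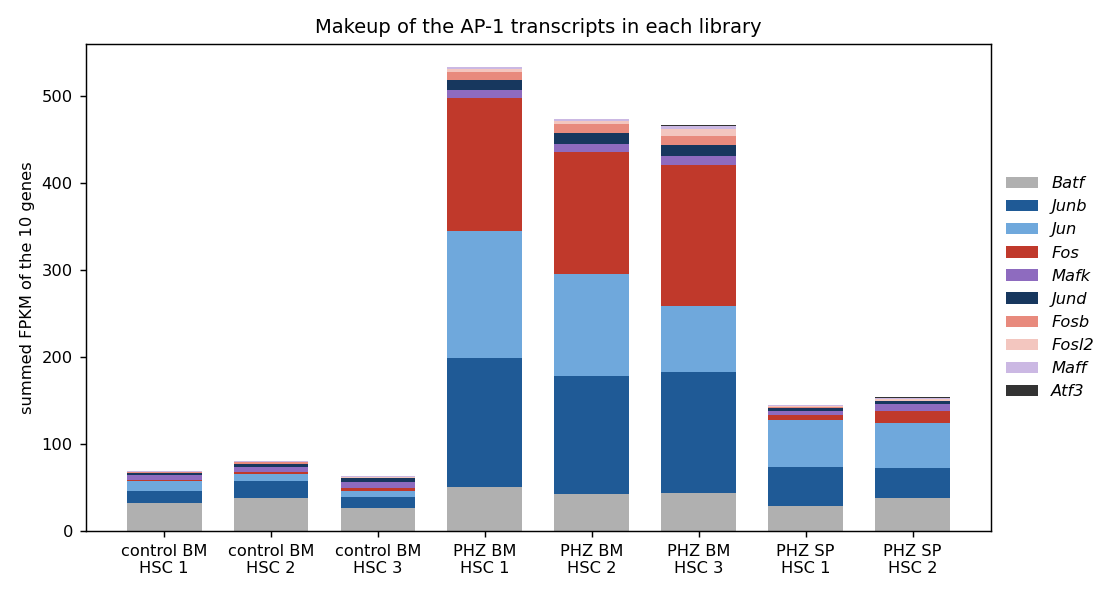
Summed FPKM of the 10 AP-1 genes in each of the 8 libraries, stacked by gene from 0. Batf is the broadest layer of the 3 control libraries (sums of 64.2 to 80.9 FPKM), Fos, Jun and Junb fill most of the 3 PHZ BM HSC libraries (466 to 533 FPKM), and the 2 PHZ SP HSC libraries (145 and 154 FPKM) consist mainly of Jun, Junb and Batf.

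In spleen HSCs the Jun genes prevailed. Jun made up 35.6% ± 2.3 (SD, n = 2), Junb 26.3% ± 5.7 and Batf 22.6% ± 3.1, with Fos at 6.58% ± 3.37. The ratio of Fos to Jun in FPKM was 0.0950, 0.241 and 0.407 in control libraries and 1.05, 1.20 and 2.13 in PHZ BM HSC. In the spleen it was 0.113 and 0.264, inside the control range. Spleen HSCs therefore had more Jun than control marrow at a Fos to Jun ratio like that of control, as a description with no test. FPKM divides by gene length, and the Batf transcript is short: counted in reads, Atf3 and Batf together made up 23.4% of the family in control libraries, against 45.5% in FPKM.

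Across the 8 libraries the members moved together to different degrees. The Pearson r of log2(FPKM + 1) was 0.967 for Fos and Junb, 0.890 for Fos and Jun and 0.983 for Fosb and Jund. It was lowest for Atf3, with 0.254 for Fosb and 0.318 for Jund. These values describe libraries of 3 groups and hold differences between groups as well as spread within them, which were not separated.

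By the same measure, the genes outside the family most like Fos included Bckdha (r = 0.987), Cd27, Epb41l4aos, Pik3ip1, Vamp8, H1f3, Ier2, Surf2 and Cnpy3 (r = 0.965). Cd27, a TNF receptor family member, had mean levels of 49.2 FPKM in control BM HSC, 94.8 in PHZ BM HSC and 61.8 in PHZ SP HSC, so its span was much smaller than that of Fos. Ier2, an immediate early gene, went from 56.5 to 270 and 94.9 FPKM. The gene most like Junb was Zfp36 (r = 0.991), which encodes tristetraprolin, a protein that makes AU-rich messages decay. Its mean levels were 10.1, 110 and 33.8 FPKM, close to those of Junb in size and order. Among the 3 genes most like Jun was Dusp1 (r = 0.975), a phosphatase of MAP kinases, at 22.3, 106 and 52.1 FPKM. Per1, a clock gene, was among those most like Fosl2 (r = 0.961), and Ddit4, an inhibitor of mTOR signaling, among those most like Mafk (r = 0.967).

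Immediate early genes that are not AP-1 subunits were examined as a list of 25 tested genes. In PHZ BM HSC 12 of them rose and none fell against control (limma), where 1.48% of all genes were called higher. Voom called 11. At an unadjusted p under 0.05, 17 were higher and 1 lower, against 16.6% of all genes in either direction. The median difference was 0.96 against 0.01 over all genes. Zfp36 had the smallest p (3.32 ± 0.18; adjusted p = 4.249e-06), followed by Ier2 (2.24 ± 0.16; adjusted p = 3.318e-05, limma). Against PHZ BM HSC, 6 of the 25 fell in PHZ SP HSC and none rose (median -0.78), where 0.37% of all genes were called lower. Ier2 was at -1.49 ± 0.17 and Zfp36 at -1.69 ± 0.20 (adjusted p = 0.00416 for both, limma). Against control, 3 rose in PHZ SP HSC (median 0.40), where 0.626% of all genes were called higher. They were led by Zfp36 (1.64 ± 0.20, adjusted p = 0.00376, limma) and by Rhob, which encodes a small GTPase (2.23 ± 0.33, adjusted p = 0.0151, limma). Rhob levels averaged 4.40 FPKM in control BM HSC, 52.3 in PHZ BM HSC and 25.7 in PHZ SP HSC.

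**Figure D4:**
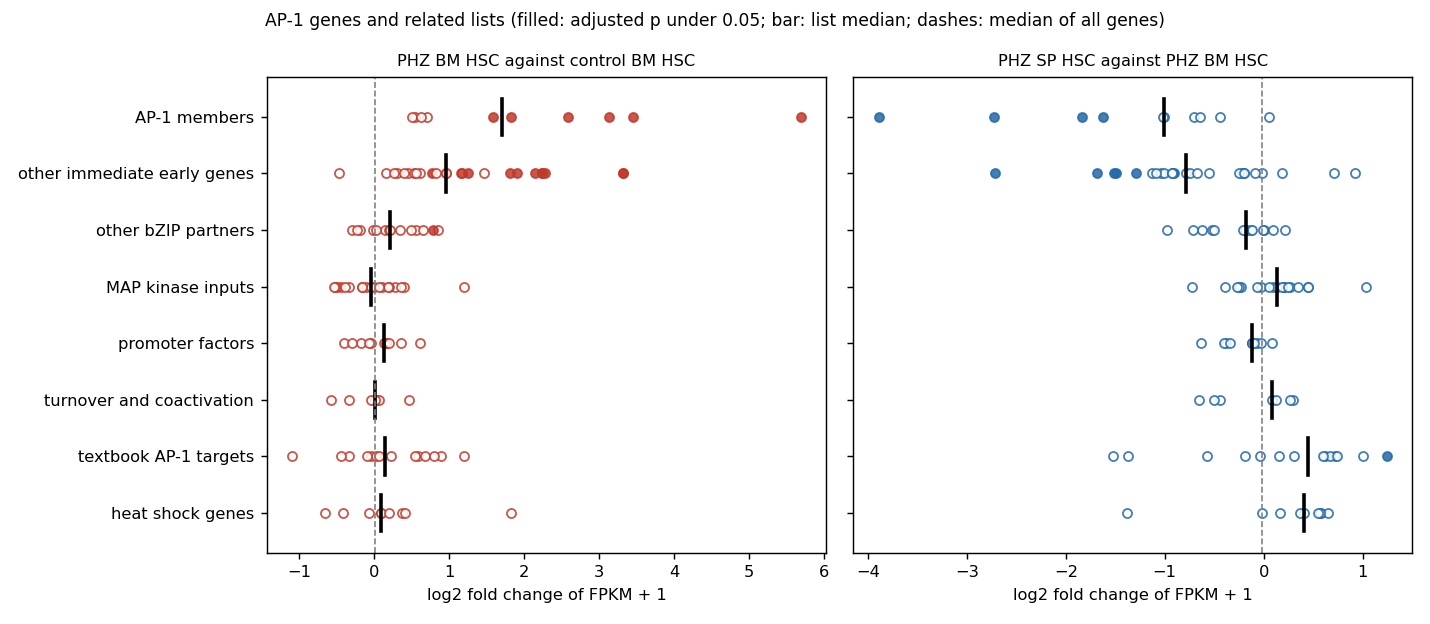
Log2 fold change of FPKM + 1 for the 10 AP-1 genes and for each tested gene of 7 related lists, in PHZ BM HSC against control BM HSC and in PHZ SP HSC against PHZ BM HSC. Filled points have an adjusted p under 0.05, black bars are list medians and the dashed line is the median of all genes tested. The AP-1 genes (medians 1.70 and -1.01) and the other immediate early genes (0.96 and -0.78) have the medians farthest from the line, with single genes on the other side of it, and the other lists have medians between -0.18 and 0.45.

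Genes that act with the family or on it were examined as lists. At an unadjusted p under 0.05 (limma), 16.6% of all genes differed between the marrow groups in either direction. The share was 13.5% between the PHZ groups and 15.8% between PHZ SP HSC and control. Of 14 tested bZIP genes that can pair with the members, 4 were higher in PHZ BM HSC at an unadjusted p under 0.05, and 1 of them was called: Nfe2l2, which encodes the antioxidant regulator Nrf2, a partner of small Maf proteins (14.3 ± 2.5 FPKM in control and 25.3 ± 2.6 in PHZ BM HSC, SD, n = 3; adjusted p = 0.0454, limma). None of the 14 was called in the other comparisons by limma or voom, although at an unadjusted p under 0.05 the spleen libraries had 4 of them lower than marrow after PHZ, and 1 higher and 1 lower than control. Nfe2, the erythroid partner of the small Maf proteins, averaged 66.3 FPKM in control, 84.6 in PHZ BM HSC and 59.3 in PHZ SP HSC (adjusted p = 0.160 between the PHZ groups).

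None of the 19 tested MAP kinase genes, which relay signals to Fos and Jun proteins, was called in any comparison by limma or voom. At an unadjusted p under 0.05, 4 differed between the marrow groups, 1 between the PHZ groups and 3 between spleen and control. The median differences were -0.05 in PHZ BM HSC against control, 0.14 between the PHZ groups (spleen against marrow) and 0.04 in PHZ SP HSC against control. The smallest p in the first belonged to Map3k8, at 1.40 FPKM in control and 4.26 in PHZ BM HSC (1.19 ± 0.36; adjusted p = 0.116, limma). The 11 tested factors that act on the Fos and Jun promoters were likewise not called by either tool (1, 0 and 1 at an unadjusted p under 0.05), with medians of 0.13, -0.12 and -0.25. Among them Srf, which binds the Fos serum response element, averaged 2.30, 1.48 and 0.576 FPKM in control BM HSC, PHZ BM HSC and PHZ SP HSC (adjusted p of 0.438 against PHZ BM HSC and 0.161 against control). Of the 7 tested ubiquitin ligases and cofactors of Jun and Fos, limma called none (1, 1 and 3 at an unadjusted p under 0.05), with medians of 0.00, 0.08 and -0.03. Voom called 1 lower in PHZ BM HSC than in control. These are transcript levels, and phosphorylation was not measured.

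Of 14 tested genes known as AP-1 targets, mostly from fibroblasts, lymphocytes and macrophages, none was called in PHZ BM HSC against control by limma or voom (1 higher and 1 lower at an unadjusted p under 0.05). Their median difference was 0.15. Ccnd1, which encodes cyclin D1, was 6.21 ± 1.80 FPKM in control and 2.39 ± 0.97 in PHZ BM HSC (adjusted p = 0.0618, limma). In PHZ SP HSC, Vim rose against both marrow groups and Mmp9 against control. Vim, which encodes the filament protein vimentin, averaged 78.3 FPKM in control, 113 in PHZ BM HSC and 268 in PHZ SP HSC (1.25 ± 0.19 against PHZ BM HSC, adjusted p = 0.0146; 1.78 ± 0.19 against control, adjusted p = 0.00188, limma). Mmp9, a matrix metalloproteinase that neutrophils also carry, averaged 0.529, 1.33 and 3.60 FPKM (adjusted p = 0.0470 against control, limma; voom did not call it, at 0.0882). The medians of the list in the spleen were 0.45 against PHZ BM HSC and 0.41 against control.

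Heat shock genes, which respond to stress of cells and to their handling, were examined beside these results. None of the 9 tested was called in any comparison by limma or voom. Hspa1a and Hspa1b were listed but did not pass the filter. At an unadjusted p under 0.05, 1 was higher and 1 lower in PHZ BM HSC than in control. In PHZ SP HSC 4 were higher than in PHZ BM HSC and 3 higher than in control, and none was lower. The shares of all genes that differed in either direction were 13.5% and 15.8% there, and 16.6% between the marrow groups. The medians were 0.09 in PHZ BM HSC against control, 0.40 between the PHZ groups (spleen against marrow) and 0.45 in PHZ SP HSC against control. Hsp90aa1 averaged 80.2 FPKM in control, 52.7 in PHZ BM HSC and 75.6 in PHZ SP HSC (adjusted p = 0.134 in PHZ BM HSC against control, limma). Hspb1 had the largest difference between the marrow groups, at 0.333 FPKM in control and 13.1 ± 21.6 (SD) in PHZ BM HSC. The PHZ BM HSC libraries thus differed widely (adjusted p = 0.377, limma). The part of handling in the AP-1 levels was not tested.

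Markers of other blood cells differed mainly in the spleen. The summed level of 8 erythroid markers was 590 to 744 FPKM in control, 550 to 706 in PHZ BM HSC and 1402 to 1595 in PHZ SP HSC. Of the 8, 5 rose in PHZ SP HSC against control, where 0.626% of all genes were called higher. The 9 neutrophil markers summed to 428 to 737, 506 to 1056 and 1410 to 1794 FPKM. Most of their spleen sum was S100a8 and S100a9, which averaged 686 and 581 FPKM there. Of the 9, only S100a8 was called in the spleen (adjusted p = 0.0281 against PHZ BM HSC and 0.0422 against control, limma). Of all genes, 0.608% and 0.626% were called higher there. Against PHZ BM HSC, 7 of the 9 were higher by fitted difference and 2 lower, Prtn3 and Ctsg. The 7 macrophage markers summed to 4.75 to 13.9, 6.00 to 19.6 and 38.6 to 60.4 FPKM. None of the 3 tested macrophage markers was called in any comparison. Most of their spleen sum was Cd68, which averaged 4.35, 10.5 and 46.0 FPKM (adjusted p = 0.0582 against control, limma). C1qa averaged 1.62, 0.580 and 1.57 FPKM, and C1qb 1.92, 1.90 and 0.0411 FPKM. For the 6 megakaryocyte markers the sums were 116 to 138, 83.1 to 104 and 87.9 to 142 FPKM. The 7 B cell markers summed to 27.4 to 50.6, 28.7 to 31.3 and 38.5 to 54.6 FPKM, and the 7 T and NK cell markers to 20.5 to 61.1, 31.2 to 49.2 and 43.9 to 51.8 FPKM. Of these last 7 markers 2 were tested, and they went different ways. Most of the sum in the marrow groups was Nkg7, which averaged 36.7 FPKM in control, 36.2 in PHZ BM HSC and 27.4 in PHZ SP HSC and was not called. Klrb1c, an NK cell receptor named here after its values were seen, averaged 0.947, 2.58 and 16.6 FPKM. It rose in the spleen against both marrow groups (adjusted p = 0.00477 against PHZ BM HSC and 0.000866 against control, limma).

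Between the marrow groups, where the 6 Fos and Jun genes rose, the ranges of the summed markers overlapped for every cell type except megakaryocytes. Of the 6 megakaryocyte markers 2 fell in PHZ BM HSC, where 1.26% of all genes were called lower than in control. Of the neutrophil markers 1 of 9 rose there (1.48% of all genes), Prtn3, at 94.4 FPKM in control and 184 in PHZ BM HSC (adjusted p = 0.00750, limma). A sum mostly follows its most abundant genes and can hide opposite changes. By fitted difference 5 of the 9 were higher, such as Ctsg (0 and 3.78 FPKM), and 4 were lower, such as Camp (35.6 and 16.4 FPKM). In control libraries Cd3d and Cd8a of the T and NK cell markers, Ctsg of the neutrophil markers and Marco of the macrophage markers were at 0, and Marco was at 0 in PHZ BM HSC as well. The part of other cell types in the AP-1 levels was not tested.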

How the data were processed

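RNA-seq of sorted HSCs was analysed in 8 libraries (3 control BM HSC, 3 PHZ BM HSC, 2 PHZ SP HSC), grouped and numbered by their titles. The marrow columns are named WBM but belong to samples labelled as HSCs. Per the labels and methods, the authors amplified cDNA with SMART-Seq2, used Nextera XT, mapped reads to mm10 with STAR and ran DESeq2; the gene counter, annotation and strand setting are not given in the sources used here. The authors deposited FPKM per gene in a table per group, and their own comparisons (fold changes and p-values), which were not used. All 110442 values above 0 came out as whole reads (within 0.001 reads), and FPKM was rescaled by median-of-ratios factors over all libraries (at most 1.05% change). Genes in all tables with at least 1 FPKM in at least 2 libraries were fitted with limma 3.58.1 (R 4.3.3; trend and robust variance) on log2(FPKM + 1), all groups in a single fit without covariates, two-sided. The code was tested on simulated data. Reads are not molecules, so limits in reads cover counting error only. Members and lists were chosen with earlier results of these data known, and all members were named. List genes were named by smallest p, at most 2 per list, direction and comparison, and genes most like a member by Pearson r of log2(FPKM + 1) over the 8 libraries (10 for Fos, 3 for the others, of which a few are printed). Promoters came from RefSeq (all 10 members matched), gene models from GENCODE vM21. Alternatives covered scaling, pseudocount, filter, samples in the fit, variance model, voom, replicate block and each library left out. Figures were drawn with matplotlib 3.10.9.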

Additional observations from a re-analysis of the deposited data

How the results depend on the processing

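The 6 members called in PHZ BM HSC against control BM HSC were called under all 10 alternatives and without any single library. For the whole table, 311 genes were called there, 205 without a filter, 204 without trend and robust variance, and 114 to 306 without a library. In PHZ SP HSC against PHZ BM HSC, 111 genes were called, 62 without a filter, 63 without trend and robust variance, 69 by voom, and 5 to 148 without a library; of the members 4 were called, and 1 to 5 without a library (1 without PHZ SP HSC replicate 2). Against control BM HSC, PHZ SP HSC had 86 genes called, 39 with a pseudocount of 0.1 FPKM, 46 without a filter, 44 with only the 2 groups compared, and 14 to 83 without a library; of the members 3 were called, and 1 without a filter, with only the 2 groups compared or without trend and robust variance, and 1 to 3 without a library (1 without either spleen library). The cause of these changes was not tested. Whether the numbers pair the samples could not be decided with so few libraries per group. Deviations from the group means correlated with r of -0.008 to 0.06 for same-numbered libraries and -0.064 to 0.069 for the others. With a replicate block 6, 5 and 3 members were called in the order above (Jun at an adjusted p of 0.0210 in the second, limma) and 294, 112 and 73 genes. Reversals, 20 in all, concerned uncalled members near 0. In PHZ SP HSC against control, Jund became 0.036, Batf -0.0080 and Mafk 0.0397 under the replicate block, and Maff -0.00435 as deposited, -0.026 scaled by total reads and -0.0447 by voom; without a library Fosb ranged from -0.42 to 0.12, Jund from -0.26 to 0.10, Batf from -0.12 to 0.24, Maff from -0.19 to 0.22 and Mafk from -0.29 to 0.25. In PHZ SP HSC against PHZ BM HSC, Atf3 ranged from -0.37 to 0.48 without a library. Depth limits Atf3 (0 to 36 reads) and, in control libraries, Fosb (13 to 44 reads), Fosl2 (21 to 52) and Maff (17 to 65), and 2 spleen libraries limit every comparison with spleen.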
